A study of Mus musculus with 18 samples.

Results

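The 10 endoderm genes followed here, *Gata4*, *Gata6*, *Sox17*, *Sox7*, *Foxa1*, *Foxa2*, *Hhex*, *Pdgfra*, *Dab2* and *Cxcr4*, were taken as a fixed list of symbols out of 35773 genes counted in mouse pluripotent stem cells. The rule is a list of symbols and uses no measured value, but the list was chosen with earlier results of these data known. A gene was tested when 3 or more samples held 10 or more of its counts. This was so for 9 of the 10, out of 16901 genes in all, and *Sox7* was left untested.

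Endoderm arises more than once in the early mouse embryo. The primitive endoderm separates from the epiblast in the blastocyst, under *Gata6*, *Gata4*, *Sox17* and *Sox7*, carries *Pdgfra* on its surface and gives rise to visceral and parietal endoderm, where *Dab2* serves endocytosis. The definitive endoderm forms later from the primitive streak, under nodal and activin signals, and is marked by *Foxa2*, *Sox17*, *Foxa1* and *Cxcr4*, with *Hhex* in its anterior part. *Sox17*, *Gata4*, *Gata6* and the Foxa genes are used in both, so none of them alone tells which endoderm a signal belongs to.

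RNA-seq was done on 18 samples, 3 for each of 6 groups. ESCs were naive cells kept in 2i/LIF. EpiLCs were epiblast-like cells and EpiSCs were epiblast stem cells, whose culture the sources do not describe. AFSCs were primed cells derived from blastocysts in N2B27 medium with activin A and bFGF, without feeder cells. ASCs were derived from AFSCs in ABCL, which is N2B27 with activin A, BMP4, the Wnt agonist CHIR99021 and LIF, by way of colonies positive for the GOF-GFP reporter. Those colonies arose among dying cells, so ASCs descend from cells that survived the change of medium. ESC-ASCs were ESCs converted in ABCL. All samples carry the label wild type and strain 129S2/SvPasCrl, whereas by the methods of the study the blastocysts had mixed parentage and carried reporters. The labels call the samples replicates without naming separate cultures, so p-values measure the spread between these samples. In bulk RNA, fewer cells that express a gene and less RNA per cell cannot be told apart.

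Total counts ran from 4961934 to 9906473 per sample in the first 5 groups and from 17813619 to 18071600 in ESC-ASCs, so depth and cell type coincide for ESC-ASCs and cannot be told apart. Replicate 1 stood apart from the other two in ESCs, ASCs, EpiLCs and AFSCs, with a chi-square per degree of freedom of 21.5 to 100 against them, compared with 1.65 to 11.8 between replicates 2 and 3. The levels below are counts divided by the DESeq2 size factor of the sample and by exon length in kb, called normalized counts per kb, and are given for replicates 1, 2 and 3 in that order. *Pou5f1*, a core pluripotency factor, had group means from 4853 to 8089 on this scale in all 6 groups. The core factors *Sox2* and *Nanog* were less even. *Sox2* had means from 76.1 in EpiSCs to 2329 in ESCs, and *Nanog* from 220 in EpiLCs to 4109 in ESCs. The naive factors *Esrrb*, *Klf4*, *Tbx3* and *Prdm14* had means of at least 35.0 in ESCs, ASCs and ESC-ASCs and of at most 13.1 in EpiLCs, AFSCs and EpiSCs. Against *Pou5f1* the endoderm genes were low. The 10 of them summed to between 37.4 and 74.9 in each ESC, EpiLC, ASC and ESC-ASC sample, to 111 to 142 in AFSCs and to 297 to 321 in EpiSCs. Most of the AFSC sum was *Foxa2*, with a mean of 90.5 there. Most of the ESC sum was *Hhex*, with a mean of 42.3.

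**Figure D1:**
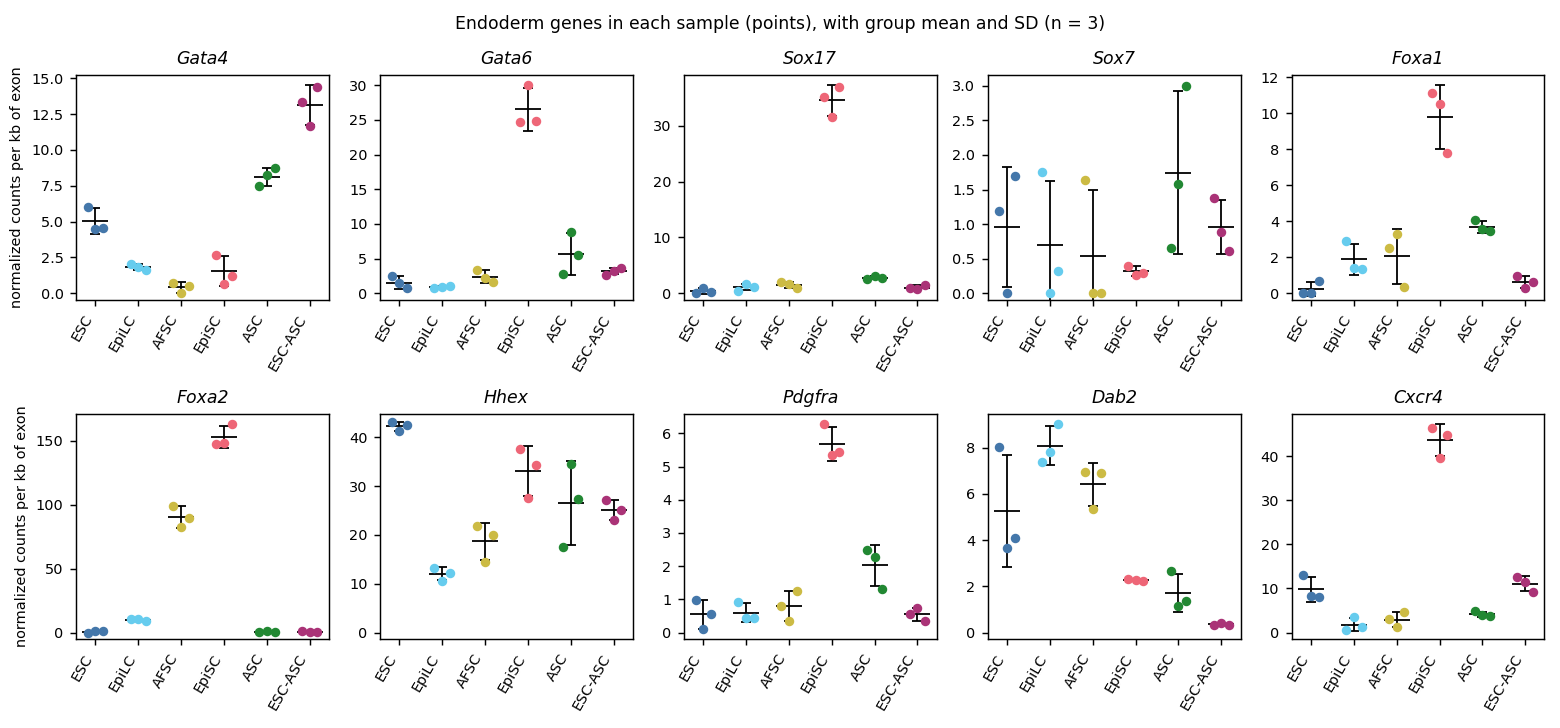
Level of each of the 10 endoderm genes (vertical axis, normalized counts per kb of exon, linear, a separate scale for each gene) in the 6 groups. Points are the 3 samples of a group, long ticks their mean and bars 1 SD. *Gata6*, *Sox17*, *Foxa1*, *Foxa2*, *Pdgfra* and *Cxcr4* were highest in EpiSCs, *Gata4* in ESC-ASCs, *Hhex* in ESCs, *Dab2* in EpiLCs, and *Sox7* did not exceed 2.99 in any sample.

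*Gata4* (ENSMUSG00000021944, GRCm38 chromosome 14, 63198922 to 63271692, minus strand) encodes a zinc finger factor of the primitive endoderm, also used in the heart. Its levels were highest in both ABCL groups. The ESC-ASC samples had 13.3, 11.6 and 14.4 normalized counts per kb and the ASC samples 7.46, 8.25 and 8.71. ESC samples followed at 6.05, 4.47 and 4.57. The other groups were lower, with 2.07, 1.81 and 1.64 in EpiLCs, 2.69, 0.677 and 1.22 in EpiSCs, and 0.690, 0 and 0.531 in AFSCs. All 6 ABCL samples lay above all 12 others, and AFSCs, the cell type from which ASCs were made, held 4 counts in all. Between ASCs and AFSCs the log2 fold change was 4.23 (SE 0.477, adjusted p = 3.44e-07, edgeR), a ratio of 20.4 with a 95% exact counting interval of 7.70 to 76.6. ESC-ASCs exceeded ESCs by 1.39 on the log2 scale (SE 0.287, adjusted p = 0.000356). The excess of ASCs over ESCs was 0.70 (SE 0.311, adjusted p = 0.0683) and did not pass. It passed when upper quartile factors or total counts set the scale. That of ESC-ASCs over ASCs was 0.70 (SE 0.257, adjusted p = 0.0309) and was lost without any 1 of ASC replicates 1, 2 and 3 or ESC-ASC replicates 1 and 3, with adjusted p of 0.0555 to 0.0948, and when total counts set the scale (adjusted p = 0.0814).

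*Gata6* (ENSMUSG00000005836, GRCm38 chromosome 18, 11052510 to 11085635, plus strand) encodes the factor that starts the primitive endoderm programme in the blastocyst. It was highest in EpiSCs, with 24.7, 30.1 and 24.8 normalized counts per kb. ASC samples had 2.70, 8.78 and 5.49, a wide spread in which replicate 1 lay among the ESC-ASC samples at 2.69, 3.21 and 3.62. AFSC samples had 3.37, 2.17 and 1.62, ESC samples 2.47, 1.46 and 0.699, and EpiLC samples 0.724, 0.831 and 1.01. EpiSCs stood clear of every other sample, and the groups below them overlapped in part. EpiSCs exceeded ASCs, the next group, by 2.23 on the log2 scale (SE 0.301, adjusted p = 2.87e-06). The fold over ESCs was 19.4, with a counting interval of 10.4 to 40.9. *Gata6* shared 58 exon bases with the antisense gene *1010001N08Rik*, which had at most 3 counts in any sample, and the counting did not use strand.

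*Gata4* and *Gata6* thus had different orders over the 6 groups. In EpiSCs *Gata6* was above all ESC samples and *Gata4* below them, and in AFSCs *Gata6* was not called against ESCs (log2 fold change 0.72, SE 0.555, adjusted p = 0.272) while *Gata4* was lower by 3.53 (SE 0.527, adjusted p = 1.03e-05).

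*Sox17* (ENSMUSG00000025902, GRCm38 chromosome 1, 4490931 to 4497354, minus strand) encodes an HMG box factor of both primitive and definitive endoderm. Its EpiSC samples had 35.2, 31.6 and 37.0 normalized counts per kb. Every other sample had at most 3.05. ASC samples had 2.49, 3.05 and 2.76, AFSC samples 1.98, 1.70 and 0.868, and EpiLC samples 0.484, 1.67 and 1.12. ESC-ASC samples had 0.847, 0.717 and 1.47 and ESC samples 0, 0.976 and 0.234. The EpiSC level was 74.4 times that of ESCs by summed counts, with a counting interval of 31.7 to 230, since ESCs held only 5 counts. ASCs were higher than ESCs by 2.50 on the log2 scale (SE 0.577, adjusted p = 0.00148) with no overlap between the samples.

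*Sox7* (ENSMUSG00000063060, GRCm38 chromosome 14, 63943674 to 63950732, plus strand), the relative of *Sox17* in the SoxF family, was low in all groups. It never exceeded 9 counts in a sample and was not tested. ASC samples had 0.654, 1.57 and 2.99 normalized counts per kb, and EpiSC samples, where *Sox17* was high, had 0.398, 0.267 and 0.289 from 1 count each. The summed counts of 16 in ASCs and 3 in EpiSCs gave a ratio of 5.61 with a counting interval of 1.60 to 30.0. ASCs also had more than AFSCs, by a ratio of 3.67 (interval 1.18 to 15.1), and than EpiLCs, by 2.79 (interval 1.04 to 8.70). These intervals cover counting error only, and the ASC samples themselves were widely spread. For the other pairs in which a group held 10 or fewer counts, the interval included a ratio of 1.

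*Foxa2* and *Foxa1* encode forkhead factors that bind and open chromatin at endoderm enhancers. They are shown with their promoter windows because both were highest in EpiSCs and yet differed in AFSCs. The windows run from 250 bases before to 50 bases after the RefSeq start site, on GRCm38.p6, and are read on the strand of the gene, which is minus for both. Capitals mark matches on either strand to the forkhead letters TGTTTAC, the GATA letters AGATAA, the SOX letters AACAAT, the T-box letters AGGTGTGA, the TCF/LEF letters CTTTGAT, the TATA box letters TATAAA and the CCAAT box letters CCAAT. The *Foxa1* window is chr12:57546062-57546361 and the *Foxa2* window is chr2:148046920-148047219.
Foxa1: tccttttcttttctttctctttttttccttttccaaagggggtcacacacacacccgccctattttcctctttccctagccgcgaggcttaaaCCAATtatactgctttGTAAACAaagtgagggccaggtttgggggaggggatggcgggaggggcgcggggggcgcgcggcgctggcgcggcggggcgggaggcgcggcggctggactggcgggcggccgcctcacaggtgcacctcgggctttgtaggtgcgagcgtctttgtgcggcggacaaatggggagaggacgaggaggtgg
Foxa2: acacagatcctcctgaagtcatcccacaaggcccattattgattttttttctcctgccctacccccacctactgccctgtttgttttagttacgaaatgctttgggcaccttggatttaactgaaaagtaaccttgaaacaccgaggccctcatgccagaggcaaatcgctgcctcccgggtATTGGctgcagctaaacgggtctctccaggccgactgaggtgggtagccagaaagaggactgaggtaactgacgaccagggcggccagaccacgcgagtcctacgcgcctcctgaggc
The *Foxa1* window held the forkhead letters on its minus strand, with the match starting 141 bases before the start site, and the CCAAT letters 157 bases before it. The *Foxa2* window held only the CCAAT letters, on the minus strand 68 bases before the start site. Among all 32851 RefSeq windows of this length, 3.65% held the forkhead letters and 37.41% the CCAAT letters. A match is a description of the letters and not a site of binding. The *Foxa1* window had 26 CG pairs and the *Foxa2* window 12, against a median of 7 over all windows. RefSeq gives *Foxa2* a further pair of start sites, 1021 and 1505 bases downstream, whose windows are not shown and differ from this one. The nearer had 23 CG pairs and none of the letters searched, and the farther had 13 CG pairs and held the GATA, TCF/LEF and TATA box letters.

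*Foxa2* (ENSMUSG00000037025, GRCm38 chromosome 2, 148042877 to 148046969, minus strand) was the most abundant of the 10 genes in both primed groups. EpiSC samples had 148, 149 and 163 normalized counts per kb and AFSC samples 99.4, 82.5 and 89.6. EpiLC samples had 10.7, 10.5 and 9.03. The other groups were near 0, with 0, 0.982 and 1.41 in ESCs, 0.455, 1.31 and 0.463 in ASCs and 0.853, 0.618 and 0.636 in ESC-ASCs. The values fell into 4 separate steps without overlap, EpiSCs, AFSCs, EpiLCs and then the other groups together. Each step was larger than the spread between samples. EpiSCs exceeded AFSCs by 0.75 on the log2 scale (SE 0.165, adjusted p = 0.0013), AFSCs exceeded EpiLCs by 3.16 (SE 0.201, adjusted p = 3.22e-10) and EpiLCs exceeded ESCs by 3.38 (SE 0.389, adjusted p = 4.88e-07). The AFSC to ASC ratio by summed counts, 549 against 5, was 120 with a counting interval of 50.9 to 370.

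*Foxa1* (ENSMUSG00000035451, GRCm38 chromosome 12, 57540631 to 57546121, minus strand) was lower than *Foxa2* in the primed groups on the same per-length scale. EpiSC samples had 11.1, 10.5 and 7.78 normalized counts per kb and ASC samples 4.06, 3.58 and 3.44. AFSC samples had 2.53, 3.27 and 0.325, EpiLC samples 2.90, 1.39 and 1.34, ESC-ASC samples 0.951, 0.306 and 0.631, and ESC samples 0, 0 and 0.700. In ASCs, where *Foxa2* was close to 0, *Foxa1* stood above all ESC and ESC-ASC samples. The ESC samples held 2 counts in all, so the EpiSC to ESC ratio was 35.0 with a counting interval of 9.41 to 293 and the ASC to ESC ratio 13.3 with an interval of 3.41 to 115. EpiSCs exceeded ASCs by 1.40 on the log2 scale (SE 0.416, adjusted p = 0.0061), and ASCs exceeded ESC-ASCs by 2.49 (SE 0.550, adjusted p = 0.00105).

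*Hhex* (ENSMUSG00000024986, GRCm38 chromosome 19, 37434810 to 37440731, plus strand) encodes a homeobox repressor of the anterior endoderm that is also made in the blastocyst. It was the only one of the 10 genes with at least 10 counts in every sample. ESC samples had 43.1, 41.3 and 42.5 normalized counts per kb and EpiSC samples 37.6, 27.6 and 34.3. ASC samples had 17.4, 34.6 and 27.4 and ESC-ASC samples 27.1, 23.2 and 25.2. AFSC samples had 21.8, 14.5 and 20.0 and EpiLC samples 13.3, 10.6 and 12.3. The range over groups was narrow, and no neighbouring groups in this order differed beyond their spread except AFSCs and EpiLCs, by 0.64 on the log2 scale (SE 0.254, adjusted p = 0.0464). The ends of the order did differ, with EpiLCs lower than ESCs by 1.81 (SE 0.239, adjusted p = 2.91e-06).

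*Pdgfra*, *Dab2* and *Cxcr4* act at the cell surface or just beneath it. *Pdgfra* (ENSMUSG00000029231, GRCm38 chromosome 5, 75152292 to 75198215, plus strand) encodes the alpha receptor for platelet-derived growth factors. Its EpiSC samples had 6.28, 5.36 and 5.43 normalized counts per kb and its ASC samples 2.48, 2.28 and 1.31. The other 12 samples lay between 0.116 and 1.24, in the order AFSCs, EpiLCs, ESCs and ESC-ASCs by their means of 0.798, 0.597, 0.552 and 0.546, with overlapping samples. EpiSCs exceeded ASCs by 1.49 on the log2 scale (SE 0.345, adjusted p = 0.000901) and ASCs exceeded AFSCs by 1.28 (SE 0.450, adjusted p = 0.0182). *Pdgfra* shared 456 exon bases with the antisense gene *Gm42802*, which had at most 2 counts in a sample, and 30 with *Mir7025*, which had at most 1.

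*Dab2* (ENSMUSG00000022150, GRCm38 chromosome 15, 6299788 to 6440712, plus strand) encodes an adaptor that links receptors to clathrin-mediated endocytosis. Its order over the groups differed from that of the other genes, with EpiLCs at the top. EpiLC samples had 7.40, 7.83 and 9.04 normalized counts per kb, AFSC samples 6.97, 5.36 and 6.91, and ESC samples 8.05, 3.65 and 4.10. EpiSC samples had 2.32, 2.28 and 2.21, ASC samples 2.65, 1.13 and 1.34, and ESC-ASC samples 0.344, 0.399 and 0.342. EpiLCs, AFSCs and ESCs overlapped in part and neighbours among them were not called. EpiSCs lay below them, lower than ESCs by 1.15 on the log2 scale (SE 0.312, adjusted p = 0.00352), and ESC-ASCs lay below ASCs by 2.18 (SE 0.417, adjusted p = 0.000281).

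*Cxcr4* (ENSMUSG00000045382, GRCm38 chromosome 1, 128588199 to 128592293, minus strand) encodes the receptor for the chemokine *Cxcl12* and is used to sort definitive endoderm. EpiSC samples had 46.5, 39.5 and 44.9 normalized counts per kb. ESC-ASC samples had 12.6, 11.3 and 9.18, ESC samples 13.1, 8.37 and 8.02, and ASC samples 4.77, 4.02 and 3.64. AFSC samples had 2.98, 1.28 and 4.58 and EpiLC samples 0.639, 3.42 and 1.18. EpiSCs were 3.02 or more times any other sample, ESCs and ESC-ASCs overlapped, and AFSCs, the other primed cells, lay among the lowest. EpiSCs exceeded ESC-ASCs, the next group, by 1.98 on the log2 scale (SE 0.260, adjusted p = 1.56e-06).

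The promoter windows of *Cxcr4* and *Dab2* are shown as a pair that moved in opposite directions between EpiSCs and AFSCs. *Dab2* was opposite to all 8 other genes tested there, and *Cxcr4* is 1 of these. They follow the same rules as above, with *Cxcr4* read on the minus strand, chr1:128592250-128592549, and *Dab2* on the plus strand, chr15:6299539-6299838.
Cxcr4: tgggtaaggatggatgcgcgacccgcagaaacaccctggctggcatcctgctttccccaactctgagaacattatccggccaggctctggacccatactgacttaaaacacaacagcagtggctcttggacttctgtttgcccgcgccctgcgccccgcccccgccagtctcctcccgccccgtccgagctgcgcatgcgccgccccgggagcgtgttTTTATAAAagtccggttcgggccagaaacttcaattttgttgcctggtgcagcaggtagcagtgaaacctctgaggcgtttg
Dab2: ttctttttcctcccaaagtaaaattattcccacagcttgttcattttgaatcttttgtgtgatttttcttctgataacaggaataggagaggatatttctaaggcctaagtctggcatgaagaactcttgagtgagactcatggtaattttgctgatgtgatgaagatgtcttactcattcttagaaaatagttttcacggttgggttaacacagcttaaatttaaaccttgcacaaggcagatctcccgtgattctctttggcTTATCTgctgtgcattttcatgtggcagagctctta
The *Cxcr4* window held the TATA box letters on both strands, as overlapping matches that start 32 and 30 bases before the start site. These letters were found in 13.62% of all windows. The *Dab2* window held the GATA letters on its minus strand, 14 bases after the start site, which 11.18% of all windows hold. It had 2 CG pairs and the *Cxcr4* window 20, but a second RefSeq start site of *Dab2*, 86960 bases downstream and not shown, has a window with 19. The SOX letters, found in 10.72% of windows, the T-box letters, in 1.28%, and the TCF/LEF letters, in 3.73%, were in none of the 4 windows shown. RefSeq windows were at hand for 6 of the 10 genes.

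The first comparisons asked how the endoderm genes of each culture differed from those of naive ESCs, and they share the ESC samples. In EpiSCs 6 of the 9 genes tested were higher than in ESCs, namely *Gata6*, *Sox17*, *Foxa1*, *Foxa2*, *Pdgfra* and *Cxcr4*, where 29.2% of all genes tested were higher. *Gata4* and *Dab2* were lower, where 32% of all genes were lower. The log2 fold changes of the 6 ran from 2.18 (SE 0.300) for *Cxcr4* to 7.28 (SE 0.295) for *Foxa2*, and the median over the 9 was 3.48 against -0.04 over all genes. The 9 genes tested had no overlap between EpiSC and ESC samples, which held for 66.8% of all genes tested. *Hhex* was among these 9 but was not called (log2 fold change -0.37, SE 0.215, adjusted p = 0.148). All 8 calls remained with any 1 sample left out.

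In AFSCs the genes were split. *Foxa2*, *Foxa1* and *Sox17* were higher than in ESCs and *Gata4*, *Hhex* and *Cxcr4* lower, 3 each way, where 29.7% of all genes were higher and 30.8% lower. The share of members called in either direction was thus close to that of all genes. *Foxa2* was higher by 6.54 on the log2 scale (SE 0.304, adjusted p = 1.12e-12), while the changes of *Foxa1* and *Sox17* were 2.69 (SE 0.935, adjusted p = 0.0182) and 1.63 (SE 0.656, adjusted p = 0.038) with overlapping samples. The *Sox17* call was lost without ESC replicate 1 or 3 or AFSC replicate 1 or 2, with adjusted p of 0.0907 to 0.154, and the *Foxa1* call without ESC replicate 2 or AFSC replicate 2, with adjusted p of 0.0818 and 0.1. *Cxcr4* was lower by 1.63 (SE 0.430, adjusted p = 0.0029) and *Hhex* by 1.17 (SE 0.230, adjusted p = 0.00021). *Gata6*, *Pdgfra* and *Dab2* were not called, with log2 fold changes of 0.72 (SE 0.555), 0.71 (SE 0.602) and 0.36 (SE 0.281).

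In EpiLCs *Foxa2*, *Foxa1* and *Dab2* were higher than in ESCs, where 28.7% of all genes were higher, and *Gata4*, *Hhex* and *Cxcr4* were lower, where 26.6% were. The *Foxa1* and *Dab2* calls were weak, at 2.59 (SE 0.932, adjusted p = 0.0242) and 0.69 (SE 0.273, adjusted p = 0.0377). *Foxa1* was lost without ESC replicate 1 or 2 or EpiLC replicate 1, with adjusted p of 0.059 to 0.106. *Dab2* was lost without ESC replicate 2 or 3 or EpiLC replicate 2 or 3, with adjusted p of 0.0647 to 0.193, and in DESeq2 (adjusted p = 0.0547). *Gata4* was lower by 1.40 (SE 0.383, adjusted p = 0.00427) and *Cxcr4* by 2.29 (SE 0.456, adjusted p = 0.000284), from 10 counts of *Cxcr4* in all.

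In ASCs *Gata6*, *Sox17*, *Foxa1* and *Pdgfra* were higher than in ESCs, where 26.4% of all genes were higher, and *Hhex*, *Dab2* and *Cxcr4* were lower, where 23.9% were. The higher ones were still at low levels, since none of the 4 had a mean above 5.66 normalized counts per kb in ASCs. *Gata6* was higher by 1.97 (SE 0.472, adjusted p = 0.00202) and *Pdgfra* by 1.99 (SE 0.514, adjusted p = 0.00356). *Foxa2*, in contrast to the primed groups, was not called, at -0.31 (SE 0.642, adjusted p = 0.779) from 5 counts in each group. *Hhex* was lower by 0.69 (SE 0.219, adjusted p = 0.0137) and the call was lost without ASC replicate 1 (adjusted p = 0.0718). *Cxcr4* was lower by 1.20 (SE 0.398, adjusted p = 0.0179), a call lost without ESC replicate 1 (adjusted p = 0.063) or ASC replicate 3 (adjusted p = 0.053). Both were also lost when total counts set the scale (adjusted p = 0.0571 and 0.053).

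**Figure D2:**
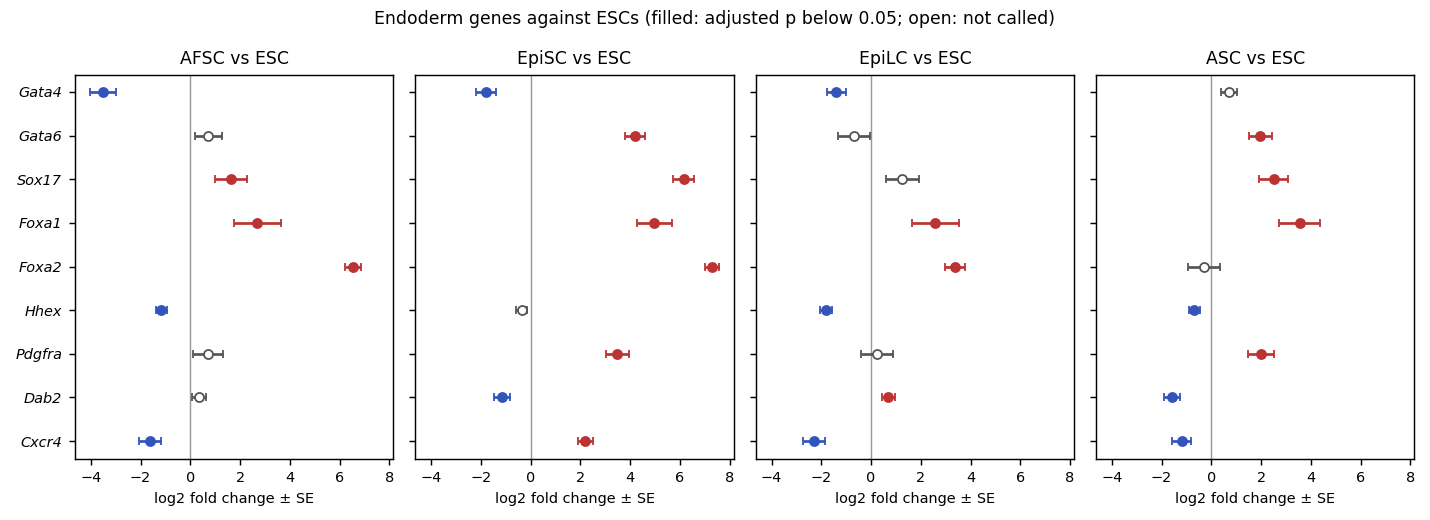
Log2 fold change of the 9 endoderm genes tested (horizontal axis, ± SE from edgeR) in AFSCs, EpiSCs, EpiLCs and ASCs against ESCs, 3 samples a group. Red is higher and blue lower with an adjusted p below 0.05, and open grey circles were not called. *Foxa2* was 6.54 higher in AFSCs and 7.28 in EpiSCs, while *Cxcr4* was lower in AFSCs by 1.63 and higher in EpiSCs by 2.18.

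The direct comparison of the primed states asked whether cells in activin A and bFGF carry the same endoderm genes as EpiSCs. All 9 genes tested differed. *Gata4*, *Gata6*, *Sox17*, *Foxa1*, *Foxa2*, *Hhex*, *Pdgfra* and *Cxcr4* were lower in AFSCs, where 17.8% of all genes were lower, and *Dab2* was higher, where 21.6% were. The median log2 fold change over the 9 was -2.27 against 0.02 over all genes. *Sox17* was lower in AFSCs by 4.51 (SE 0.342, adjusted p = 4.78e-09), *Cxcr4* by 3.82 (SE 0.352, adjusted p = 6.84e-08), *Gata6* by 3.48 (SE 0.352, adjusted p = 2.31e-07), *Pdgfra* by 2.78 (SE 0.404, adjusted p = 1.92e-05) and *Foxa1* by 2.27 (SE 0.471, adjusted p = 0.000734). *Foxa2* and *Hhex* differed least, by 0.75 and 0.80. *Foxa2* in AFSCs was thus 0.591 times its EpiSC mean, whereas *Sox17* was 0.0438 times and *Cxcr4* 0.0676 times theirs. *Dab2* was higher in AFSCs by 1.51 (SE 0.298, adjusted p = 0.00048). The *Gata4* call, 1.74 lower (SE 0.642, adjusted p = 0.0379), rested on 4 and 16 counts and was lost without AFSC replicate 2 or 3 or EpiSC replicate 1 or 3 (adjusted p of 0.0536 to 0.274) and in DESeq2 (adjusted p = 0.0687). *Hhex* was lost without AFSC replicate 2 (adjusted p = 0.0513).

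The study derived ASCs from AFSCs by the change to ABCL. It started from more than a single AFSC line. The labels do not say whether the sequenced AFSCs were the parent line of the sequenced ASCs. A difference in line and the change of medium thus cannot be told apart here. Between these groups *Gata4*, *Gata6* and *Pdgfra* were higher in ASCs, where 32.8% of all genes were higher. *Foxa2* and *Dab2* were lower, where 31.2% were. *Foxa2* was lower by 6.84 (SE 0.299, adjusted p = 7.33e-13) and *Dab2* by 1.93 (SE 0.313, adjusted p = 2.94e-05). *Gata6* was higher by 1.25 (SE 0.412, adjusted p = 0.013) with overlapping samples. Its call was lost without ASC replicate 2 or AFSC replicate 3 (adjusted p = 0.12 and 0.065), and that of *Pdgfra* without ASC replicate 1 or 2 or AFSC replicate 2 (adjusted p of 0.0505 to 0.0923). *Sox17* and *Foxa1* stood at 0.87 (SE 0.439) and 0.87 (SE 0.537) without a call.

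The change to the same medium was also made from ESCs. The study converted more than a single ESC line and the labels do not say which was sequenced, so a difference in line and the change of medium cannot be told apart in comparisons of ESC-ASCs with ESCs. In ESC-ASCs *Gata4* and *Gata6* were higher than in ESCs, where 30.6% of all genes were higher, and *Hhex* and *Dab2* were lower, where 29.6% were. *Dab2* was lower by 3.75 (SE 0.365, adjusted p = 5.82e-08), the largest change of the 9 here, and *Hhex* by 0.76 (SE 0.209, adjusted p = 0.00412). *Gata6* was higher by 1.15 (SE 0.478, adjusted p = 0.0456), from 10 counts in ESCs, and was lost without ESC replicate 2 or 3 or ESC-ASC replicate 2 or 3 (adjusted p of 0.0683 to 0.238) and in DESeq2 (adjusted p = 0.0657). *Sox17*, *Foxa1*, *Foxa2*, *Pdgfra* and *Cxcr4* were not called, with log2 fold changes from -0.39 (SE 0.568) for *Foxa2* to 1.08 (SE 0.631) for *Sox17*.

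The ABCL changes from the 2 starting cells share no samples, and neither can be told apart from a difference in line. The difference between the 2 changes was tested as an interaction. It passed for 4 of the 9 genes, *Foxa2*, *Gata4*, *Hhex* and *Dab2*, where 58.5% of all genes passed. *Foxa2* was lower after the step from AFSCs and near 0 before and after the step from ESCs, a difference of -6.45 (SE 0.717, adjusted p = 2.95e-07). *Gata4* was higher by 2.83 more from AFSCs than from ESCs (SE 0.615, adjusted p = 0.000612), from a start near 0 in AFSCs. *Hhex* differed by 1.24 (SE 0.314, adjusted p = 0.00227), being called lower from ESCs and not called from AFSCs. *Dab2* was lower from both, and less so from AFSCs, by 1.82 (SE 0.501, adjusted p = 0.0043).

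**Figure D3:**
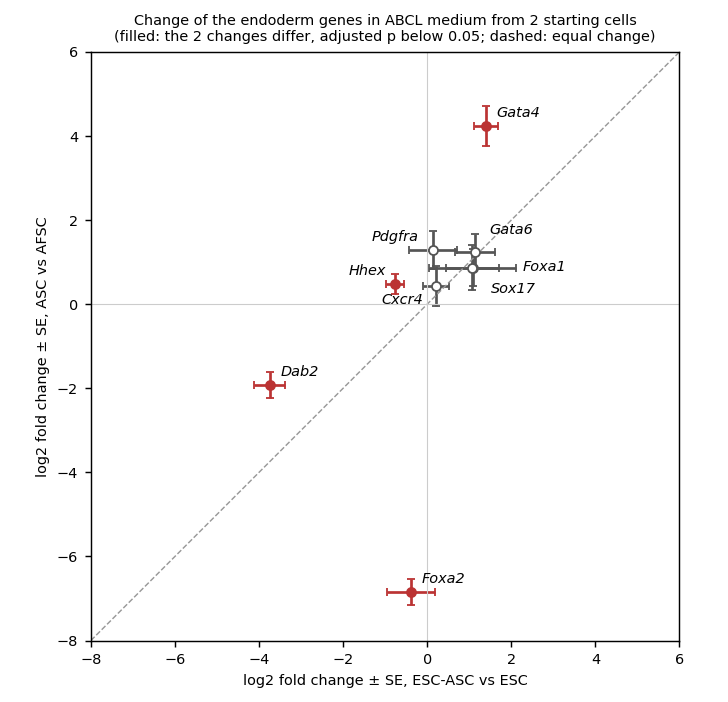
Log2 fold change (± SE, edgeR, 3 samples a group) of the 9 endoderm genes tested from AFSCs to ASCs (vertical) against that from ESCs to ESC-ASCs (horizontal). Filled red points are the 4 genes whose changes differed between the starting cells, and the dashed line marks equal change. *Foxa2* lies far below the line at -6.84 and -0.39, and *Gata4* above it at 4.23 and 1.39.

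The products were then compared in the same medium. ESC-ASCs had more *Gata4* and *Cxcr4* than ASCs, where 23% of all genes were higher, and less *Sox17*, *Foxa1*, *Pdgfra* and *Dab2*, where 27.7% were lower. *Cxcr4* was higher by 1.41 (SE 0.351, adjusted p = 0.00269), with 3 samples between 9.18 and 12.6 normalized counts per kb against 3 between 3.64 and 4.77. *Sox17* was lower by 1.42 (SE 0.399, adjusted p = 0.00614) and *Pdgfra* by 1.86 (SE 0.412, adjusted p = 0.00106). *Foxa2* and *Hhex* were not called, at -0.09 (SE 0.557) and -0.07 (SE 0.212).

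**Figure D4:**
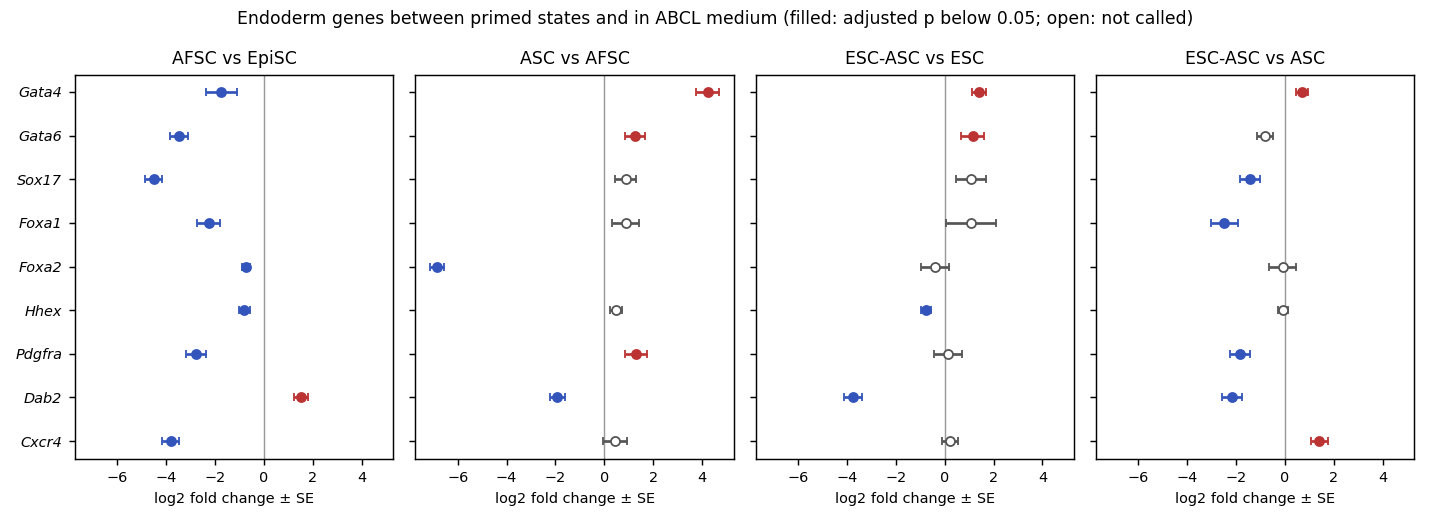
Log2 fold change of the 9 endoderm genes tested (horizontal axis, ± SE from edgeR) between AFSCs and EpiSCs, ASCs and AFSCs, ESC-ASCs and ESCs, and ESC-ASCs and ASCs, 3 samples a group. Red is higher and blue lower in the first-named group with an adjusted p below 0.05, and open circles were not called. In the AFSC to EpiSC panel 8 genes lie to the left of 0 and *Dab2* alone to the right.

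Few of these differences met the stricter rule that the study used between pairs, a log2 fold change beyond 2 together with a mean level above 3 on the log2 scale and an adjusted p below 0.05. By that rule *Foxa2* alone was called in AFSCs against ESCs, where 16.5% of all genes were. *Gata6*, *Sox17*, *Foxa1*, *Foxa2* and *Cxcr4* were called in EpiSCs (17.4%), and *Foxa2* and *Cxcr4* in EpiLCs (12.3%). None was called in ASCs (6.57%) or in ESC-ASCs (11.3%) against ESCs, or between ESC-ASCs and ASCs (5.93%). *Gata6*, *Sox17*, *Foxa1* and *Cxcr4* were called between AFSCs and EpiSCs (5.86%), and *Gata4* and *Foxa2* between ASCs and AFSCs (14.3%).

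With the 6 groups ordered by mean level for each of the 9 genes, 17 of 45 neighbouring pairs were called different. Such pairs are adjacent in each gene's own order, which makes their differences small by choice. No share over all genes was computed for pairs chosen in this way. The shares that follow are for fixed pairs and are not a like measure for this count. In the comparisons that only this ordering used, the shares of all genes called in either direction were 59.8% for ASCs and EpiLCs, 66.5% for ASCs and EpiSCs, 47.1% for EpiLCs and AFSCs, 48.6% for EpiLCs and EpiSCs, 64.1% for EpiLCs and ESC-ASCs, 69% for AFSCs and ESC-ASCs and 72.2% for EpiSCs and ESC-ASCs. EpiSCs at the top of the order differed from the next group for all 6 genes that they led, and the next group was ASCs for *Gata6*, *Sox17*, *Foxa1* and *Pdgfra*, AFSCs for *Foxa2* and ESC-ASCs for *Cxcr4*. These 6 genes were picked by their highest mean being in EpiSCs, so this count has no like share either. Below the top, the lower 5 groups of *Gata6* and of *Sox17* showed no called step between neighbours.

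Other genes of the endoderm programmes were read from lists. Of 16 genes of anterior and definitive endoderm, 14 were tested, and in EpiSCs 11 were higher and 2 lower than in ESCs, beside 29.2% and 32% of all genes. In AFSCs 8 were higher and 4 lower than in ESCs, beside 29.7% and 30.8%. Between AFSCs and EpiSCs 3 were higher and 9 lower in AFSCs, beside 21.6% and 17.8%, with a median log2 fold change of -2.24 against 0.02 over all genes. *Cer1*, a secreted nodal and BMP antagonist of anterior endoderm, had a mean of 114 ± 4.84 normalized counts per kb in EpiSCs (SD, n = 3, as below), 6.50 ± 2.65 in AFSCs and 0 in ESCs. *Eomes*, the T-box factor upstream of definitive endoderm, had 472 ± 27.6 in EpiSCs, 159 ± 33.8 in AFSCs and 2.37 ± 0.417 in ESCs. *Lhx1*, a partner of *Foxa2* in anterior endoderm, had 51.9 ± 0.568 in EpiSCs and 6.02 ± 1.26 in AFSCs. *Lefty1*, a nodal inhibitor, went the other way, with 3998 ± 701 in AFSCs and 1107 ± 49.1 in EpiSCs. From AFSCs to ASCs 4 of the 14 were higher and 8 lower, beside 32.8% and 31.2% of all genes, *Lefty1* by -4.10 (SE 0.191, adjusted p = 1.94e-12). *Trh* went the other way in this step, by 6.74 (SE 0.360, adjusted p = 1.39e-11). Among the 4 genes lower in AFSCs than in ESCs were *Hesx1*, at -6.38 (SE 0.551, adjusted p = 6.84e-09), and *Trh*, at -5.43 (SE 0.356, adjusted p = 1.45e-10).

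Of 16 visceral endoderm genes only 9 had enough counts to be tested. *Afp*, *Ttr*, *Apoa4* and *Apob*, which mature visceral endoderm secretes, had group means of at most 0.772 normalized counts per kb. Other secreted products on the list were measured at higher levels. *Trf*, the iron carrier transferrin, had 38.7 ± 7.65 in ESC-ASCs, 11.8 ± 0.754 in ASCs and 1.04 ± 0.927 in ESCs. *Rbp4*, a carrier of retinol, had 12.9 ± 1.69 in ASCs and 0.287 ± 0.497 in ESCs, and *Apom*, of lipoproteins, 27.5 ± 5.41 and 13.1 ± 7.22. *Rbp4* also had 8.62 ± 1.49 in EpiSCs and 7.90 ± 1.18 in EpiLCs, beside 7.05 ± 1.08 in ESC-ASCs. *Apom* had only 0.818 ± 0.755 in ESC-ASCs. Of the 9, 7 were higher and 0 lower in ASCs than in ESCs, beside 26.4% and 23.9% of all genes, and 5 were higher and 1 lower in ESC-ASCs, beside 30.6% and 29.6%. In EpiLCs 5 were higher and 1 lower, beside 28.7% and 26.6%. In EpiSCs 4 were higher and 3 lower, beside 29.2% and 32%. The 16 genes summed to 110 to 121 in ASC samples, 91.6 to 112 in ESC-ASCs and 96.8 to 118 in EpiLCs. The sums were 109 to 142 in EpiSCs, mostly from *Spink1*, and 19.0 to 40.5 in ESCs. A rise over ESCs was thus not particular to the ABCL groups. *Hnf4a*, a nuclear receptor of visceral endoderm, had 10.2 ± 1.91 in ASCs and 9.31 ± 1.24 in ESC-ASCs, 0.929 ± 0.672 in ESCs and no count in AFSCs or EpiSCs. *Hnf4a* and *Gata4* were thus both highest in the ABCL groups, each at a low level. *Lrp2*, the endocytic receptor megalin to which *Dab2* binds, had 67.5 ± 7.16 in EpiLCs, 42.7 ± 9.46 in AFSCs and 2.11 ± 0.560 in ESCs. Between ASCs and AFSCs *Lrp2* was lower by 3.08 (SE 0.217, adjusted p = 6.14e-10). Of 13 parietal endoderm genes 12 were tested, and from AFSCs to ASCs 6 were higher and 6 lower, beside 32.8% and 31.2% of all genes, with a median of 0.04. *Lama1* and *Nid1*, of the basement membrane, were higher, *Lama1* by 7.08 (SE 0.347, adjusted p = 4.04e-12) and *Nid1* by 4.97 (SE 0.298, adjusted p = 6.49e-11). Both were also high in ESCs, with 145 ± 27.9 for *Lama1* and 380 ± 41.7 for *Nid1*, against 109 ± 37.9 and 306 ± 105 in ASCs. Among the lower genes, *Plat* had a log2 fold change of -2.67 (SE 0.329, adjusted p = 1.11e-06). *Krt19* had 342 ± 78.5 in AFSCs and 151 ± 18.8 in ASCs, and *Sparc* 846 ± 128 and 428 ± 46.9.

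**Figure D5:**
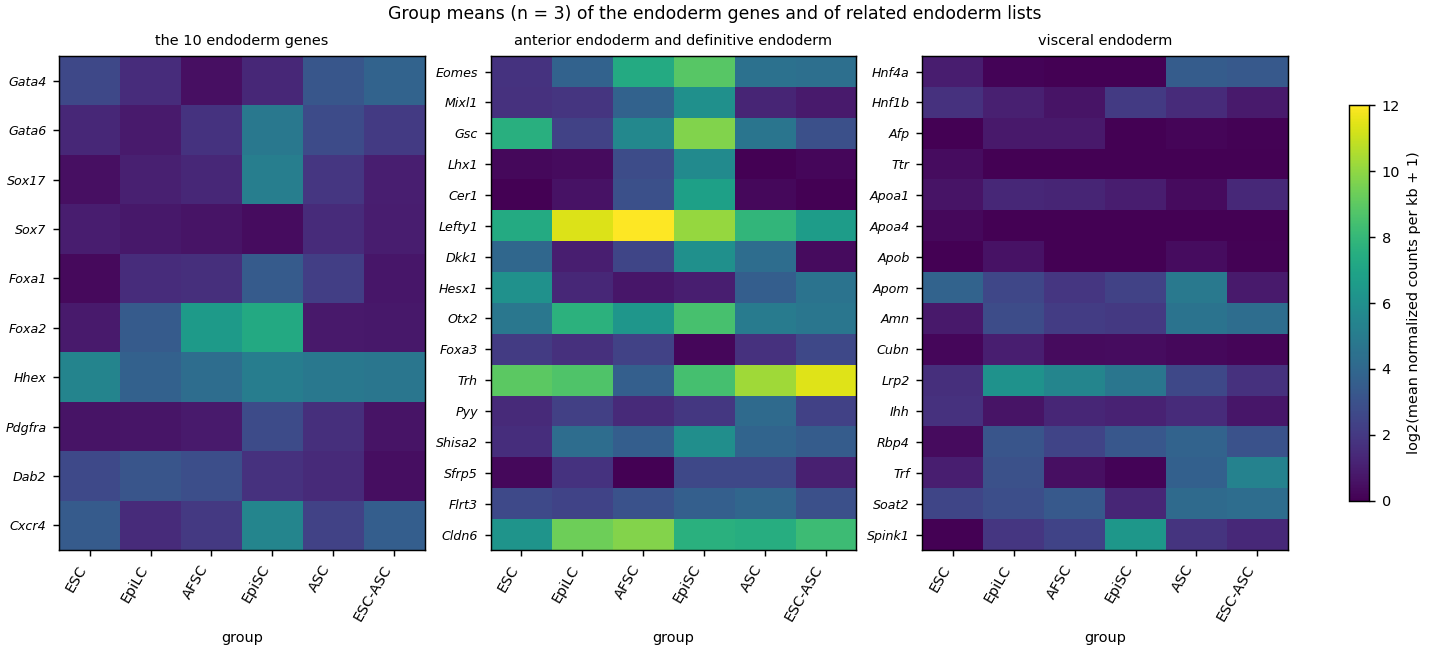
Mean level of each gene in the 6 groups (colour, log2 of mean normalized counts per kb plus 1, n = 3) for the 10 endoderm genes, 16 anterior and definitive endoderm genes and 16 visceral endoderm genes. *Foxa2*, *Cer1*, *Eomes* and *Lhx1* are brightest in EpiSCs and next in AFSCs, and *Hnf4a* and *Gata4* in ASCs and ESC-ASCs. *Afp*, *Ttr*, *Apoa4* and *Apob* are dark throughout.

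The binding partners of the surface members were measured in the same samples. Of 8 ligands, sister receptors and adaptors 7 were tested, and in AFSCs 4 were higher and 3 lower than in ESCs, beside 29.7% and 30.8% of all genes. *Pdgfa*, a ligand of *Pdgfra*, had 412 ± 19.7 normalized counts per kb in ESCs, 330 ± 39.7 in ASCs and 55.9 ± 5.62 in EpiSCs, so that the ligand was lower in EpiSCs, by 2.89 (SE 0.150, adjusted p = 3.98e-12), where the receptor was higher. *Cxcl12* had 64.4 ± 7.73 in EpiSCs, where its receptor *Cxcr4* was highest, and 73.3 ± 14.5 in EpiLCs, where *Cxcr4* was lowest. It had 0.906 ± 0.402 in ESCs. Of the 6 paralogues of the members 5 were tested, and in ASCs 4 of these were higher than in AFSCs and none lower, beside 32.8% and 31.2% of all genes. *Gata2*, of blood and trophoblast, had 83.3 ± 9.09 in ESC-ASCs, 33.0 ± 1.20 in ASCs and 11.7 ± 3.53 in ESCs, against 0.494 ± 0.277 in AFSCs. Its level in the ABCL groups exceeded that of *Gata4* in every sample.

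Several members are also made by other cell types, and lists of their markers gave the following sums of normalized counts per kb. The 8 cardiac mesoderm markers summed to 118 to 204 in ASC samples and 90.3 to 108 in ESC-ASC samples, where *Gata4* was highest, and to at most 42.0 in other samples. Most of this was *Myl7*, with means of 118 and 94.0. *Hand1* had 38.9 ± 7.77 in ASCs and a mean of at most 1.57 in every other group, ESC-ASCs included, while *Nkx2-5*, *Tbx5* and *Tnnt2* had means of at most 6.31 in any group. The 7 endothelial markers, of interest for *Sox17* and *Sox7*, summed to 26.6 to 36.4 in EpiSCs and 135 to 175 in ESCs, with *Cdh5* at most 0.808 in any group. In ASC samples, where *Sox7* had its highest mean, they summed to 140 to 216, mostly *Pecam1* at 145 ± 40.8. The EpiSC sum was mostly *Etv2*, at 26.5 ± 4.39 against 23.2 ± 4.36 in ESCs, and the ESC sum mostly *Pecam1*, at 83.8 ± 13.3, and *Tek*, at 42.6 ± 3.33. The 7 fibroblast markers, of interest for *Pdgfra* and feeder cells, summed to 17.3 to 20.7 in EpiSCs, the lowest of the 6 groups. In ASC samples, where *Pdgfra* was next highest, they summed to 75.7 to 117, beside 36.2 to 75.8 in ESCs. Most of the ASC sum was *Col1a1*, at 56.4 ± 16.6, and *Thy1*, at 34.7 ± 6.87. The 7 trophoblast markers summed to 35.8 to 45.7 in EpiSCs and 380 to 394 in ESCs, and the 6 neural markers to 380 to 387 and 634 to 690. Of the trophoblast sum in ESCs, *Tfap2c* had 271 ± 17.1 and *Cdx2* 94.9 ± 21.0. Most of the neural sum in ESCs was *Tubb3*, at 580 ± 22.0. In EpiSCs it was mostly *Tubb3*, at 196 ± 12.9, and *Nes*, at 175 ± 13.0. In ASC samples the trophoblast and neural sums were 290 to 370 and 101 to 146, and in ESC-ASC samples 287 to 311 and 100 to 115. The part of other cell types in the values of the endoderm genes was not tested.

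The genes most like each member over the 18 samples, by Pearson correlation of log2 levels among genes with a group mean of at least 8 normalized counts per kb, are given as a description, since samples of a group share their culture. *Sox17* and *Pdgfra* had the same nearest genes, *Samd5* (r = 0.963 and 0.929) and *Pax2* (r = 0.962 and 0.918). *Pax2*, a factor of the kidney and midbrain, had a mean of 25.3 in EpiSCs and at most 1.32 elsewhere. *Foxa2* was nearest to *Dclk1* (r = 0.981) and *Zfp629* (r = 0.979), *Gata4* to *Dkk3* (r = 0.969) and *Pdk4* (r = 0.967), and *Gata6* to *Tmem65* (r = 0.947) and *Tnnc1* (r = 0.945). *Dab2* was nearest to *Spns1* (r = 0.966) and *Fgd4* (r = 0.942), *Hhex* to *Ccnd3* (r = 0.925) and *Anp32a* (r = 0.919), *Foxa1* to *Sh3glb1* (r = 0.923) and *Gm20712* (r = 0.915), and *Cxcr4* to *Coq6* (r = 0.915) and *Msi1* (r = 0.907). These names depended on the measure, since 6 of the 18 were kept with rank correlation.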

How the data were processed

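The deposited values are raw fragment counts per gene, 1 table a sample. The authors mapped directional paired reads to GRCm38 with TopHat2 and counted exon fragments of Ensembl 86 with featureCounts 1.5.0-p1, without strand, counting multi-mapping fragments and those that overlap several genes. Samples were grouped by their labels. The 16901 of 35773 genes for which 3 or more samples held 10 or more counts were tested in R 4.3.3 with edgeR 4.0.16, in 1 quasi-likelihood fit of the 18 samples with TMM factors and no replicate block, and p-values were adjusted by Benjamini-Hochberg over all genes of a comparison and called below 0.05. The SE is the log2 fold change divided by the square root of F. DESeq2 1.42.0 gave size factors and an alternative test. Counting intervals are exact 95% intervals that cover counting error only. Promoter windows came from RefSeq on GRCm38.p6. The scripts were tested on simulated data.

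The 10 genes and the other lists were chosen with earlier results of these data known. The rule for named genes took all 10 members, up to 4 genes of each other list with the largest change among those called in AFSCs against ESCs or in ASCs against AFSCs, list genes that stand beside a member's result, the 2 genes most correlated with each member and 7 pluripotency genes. Replicates carry the same numbers in the labels of every group. Deviations from the group means correlated within each number above 0.1 for AFSCs and ESCs (0.511, 0.272 and 0.305) and for EpiLCs and ESCs (0.471, 0.192 and 0.257), so the numbers were taken to pair those samples, and not in the other 6 comparisons. The SEs and p-values in the Results leave this pairing out, for those 2 comparisons too. A fit with a replicate block was run only as an alternative.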

Additional observations from a re-analysis of the deposited data

Results flagged for a closer look

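The change on moving to ABCL medium differed between AFSCs and ESCs as starting cells for 4 of the 9 endoderm genes tested, by an interaction in edgeR. For *Foxa2* the difference was -6.451 on the log2 scale (SE 0.7168, adjusted p = 2.95e-07), with 549 counts in AFSCs and 5 in each of ASCs and ESCs. For *Gata4* it was 2.833 (SE 0.6145, adjusted p = 0.000612), with 4 counts in AFSCs and 43 in ESCs. For *Hhex* it was 1.239 (SE 0.3135, adjusted p = 0.00227) and for *Dab2* 1.822 (SE 0.5014, adjusted p = 0.0043). Of all genes tested 58.5% differed in this way, so a difference between the starting cells was common. The depth of ESC-ASCs, 17813619 to 18071600 counts, coincided with their cell type. The labels do not name the lines sequenced, so a difference in line cannot be told apart from the change of medium.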

How the results depend on the processing

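Over the alternatives, 1169 values of single genes were computed, and 1113 kept their side of the threshold, 45 lost a call, 11 gained one and 0 called values reversed. Of the 1113, 21 that were not called changed sign. By the thresholds that the study used between pairs, fewer endoderm genes were called. The count was 1 of 6 for AFSC vs ESC, 5 of 8 for EpiSC vs ESC and 2 of 6 for EpiLC vs ESC. It was 0 of 7 for ASC vs ESC, 4 of 9 for AFSC vs EpiSC and 2 of 5 for ASC vs AFSC. For ESC-ASC vs ESC it was 0 of 4 and for ESC-ASC vs ASC 0 of 6. That rule drops a called gene whose log2 fold change is not beyond 2. It also drops one with no group mean above 3 on the log2 scale. Leaving out 1 sample gave 3 to 5 genes for ASC vs AFSC, with *Gata6* and *Pdgfra* lost without ASC replicate 2. The replicate block, for which the pairing held in 2 comparisons, left the counts at 6 for AFSC vs ESC and 6 for EpiLC vs ESC, and gave 16 called steps between neighbouring groups in place of 17. *Sox17* and *Foxa1* had too few counts to be tested in AFSC vs ESC when only the groups compared were fitted, which gave 4. *Gata6* was gained in ESC-ASC vs ASC under 3 other scalings. Called steps between neighbouring groups numbered 14 to 18 over the alternatives run for them, which leave out the fit of only the groups compared and the thresholds of the study. Depth limits groups with at most 5 summed counts, which were *Foxa1*, *Foxa2* and *Sox17* in ESCs, *Foxa2* in ASCs, *Gata4* in AFSCs and *Sox7* in AFSCs and EpiSCs.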

Other observations

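The levels of some list genes beside the endoderm genes were not given above. *Trh*, which encodes the precursor of thyrotropin-releasing hormone and is made in the early definitive endoderm, had a mean of 2735 ± 286 normalized counts per kb in ESC-ASCs, 1240 ± 238 in ASCs and 11.4 ± 7.15 in AFSCs (SD, n = 3). It also had 497 ± 193 in ESCs, 419 ± 113 in EpiLCs and 354 ± 57.2 in EpiSCs, so AFSCs alone were low. *Hesx1*, a homeobox repressor of anterior endoderm and forebrain, had 66.9 ± 23.5 in ESCs and 0.676 ± 1.17 in AFSCs. *Spink1*, a secreted protease inhibitor on the visceral endoderm list that was chosen here after its values were seen, had 81.0 ± 18.4 in EpiSCs and at most 4.38 in the mean of any other group.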
